A study of Mus musculus with 18 samples.

Results

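The comparison described here sets G1E-ER4 cells at 30 h of estradiol against the same cells at 14 h, the later part of a 30 h course of red cell maturation in culture. It was chosen by array titles, the 3 arrays of 30 h and the 3 of 14 h, which are 6 of 18 arrays in the series. It covers all 12422 probe sets other than the chip's controls, of which the 10833 with 1 gene symbol stand for 8251 genes. G1E-ER4 is a subclone of a mouse erythroid line derived from embryonic stem cells in which Gata-1 was disrupted, and it carries Gata-1 fused to the estradiol-binding domain (Gata-1-ER), which the hormone activates. Groups used are cells at 30 h of estradiol, at 14 h, at 21 h as the time between them, at 7 h, at 3 h, and before estradiol (0 h), each with 3 biological replicates A, B and C on 1 Affymetrix MG-U74Av2 chip per sample. All groups share the Gata-1 disruption and the fusion and come from 1 subclone. Every 30 h cell had also been in culture and in estradiol for longer than every 14 h cell, so the work of Gata-1-ER, the time in culture and the hormone itself cannot be told apart in this comparison. The labels place the course between the late BFU-E and the orthochromatic erythroblast.

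Red cell precursors divide a few more times while they fill with hemoglobin, then leave the cell cycle, shrink, condense the nucleus and clear their organelles. Replication genes are driven by the E2F factors and are used in S phase, while a second wave of genes, driven through elements called CHR and CCAAT in their promoters, serves mitosis. Gata-1 promotes this exit in erythroid cells, in part by lowering Myc, and switches on globin, heme and membrane genes. Each probe set is a group of short DNA probes meant to read 1 transcript, though some may read related ones, and gives a signal on a linear scale. Values are those signals, array by array in the order A, B, C, and a change is a difference of log2(signal + 16) after quantile normalization with its standard error (SE). The added constant makes the changes of dim genes too small. A probe set was called when its adjusted p in limma, over all 12422 probe sets, was below 0.05, and fell, rose, lower and higher refer to called changes at 30 h relative to 14 h.

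Between these times the cells lost most of the transcripts for DNA replication and mitosis, lost more of those for building ribosomes, and gained transcripts for the red cell anion exchanger, the heme enzyme Alas2, the embryonic globins Hbb-y and Hba-x, metallothioneins, lysosomes and autophagy. In all, 1808 of 12422 probe sets passed (14.6%), 798 as rises (6.42%) and 1010 as falls (8.13%), and 306 rose and 491 fell by at least 2-fold. By the main probe set of each gene, the one with the highest mean log2 signal, 621 of 8251 genes rose (7.53%) and 791 fell (9.59%). The median change over all probe sets was 0.03. In 1751 of the 1808 called probe sets the 3 arrays of one time all lay beyond the 3 of the other. The same arrays gave the calls, and this count was not taken over all 12422 probe sets, so it is only a description. Since every array had the same trimmed mean when deposited, all levels are relative to total RNA, and fewer cells of a kind cannot be told apart from less RNA per cell.

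The first principal component placed the arrays in order of time, with no overlap between times. Array 14 h A stood apart from the other 14 h arrays: its first component was 14.88, against 1.33 and 1.18 for 14 h B and C, and the 21 h arrays began at 27.6. Without it, 1809 probe sets were called, of which 1530 were among the 1808, so results are given below with and without that array where it matters. Pairs of one 30 h and one 14 h array correlated at 0.921 to 0.937 over all probe sets, below the 0.959 to 0.965 within 30 h and the 0.954 to 0.965 within 14 h. The defining markers of the erythroid lineage were present at both times: Hba-a1, an adult alpha globin, read 26647, 21954 and 31044 at 30 h and 17554, 20654 and 15548 at 14 h. The Gata1 probe set read 479.9, 605 and 418 at 30 h and 334, 204 and 217 at 14 h (0.97, SE 0.21, adjusted p = 0.00268), and whether it reads the fusion transcript was not tested.

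**Figure D1:**
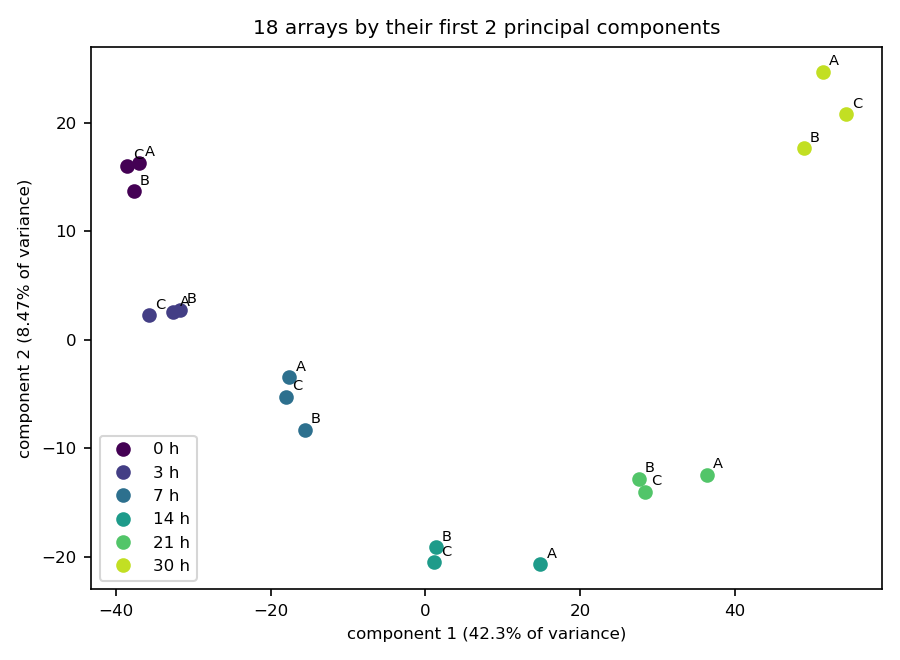
Each point is 1 of 18 arrays on the first principal component (x axis, 42.3% of variance) and the second (y axis, 8.47%), coloured by hours of estradiol and marked with its replicate letter. The 30 h arrays lie between 17.7 and 24.7 on the second component and the 14 h arrays between −20.7 and −19.1; 14 h A sits toward the 21 h arrays on the first.

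Of 216 measured genes in 11 lists of the cell cycle and its close relatives, 134 fell (62.0%) and 6 rose (2.78%), with a median change of −1.09. Over all genes 9.59% fell and 7.53% rose, with a median of 0.03. Leaving out 14 h A gave the same count of 134 falling. The plot of shares by list shows that the falling lists span licensing, the fork, nucleotide supply, mitosis and chromosome structure.

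**Figure D2:**
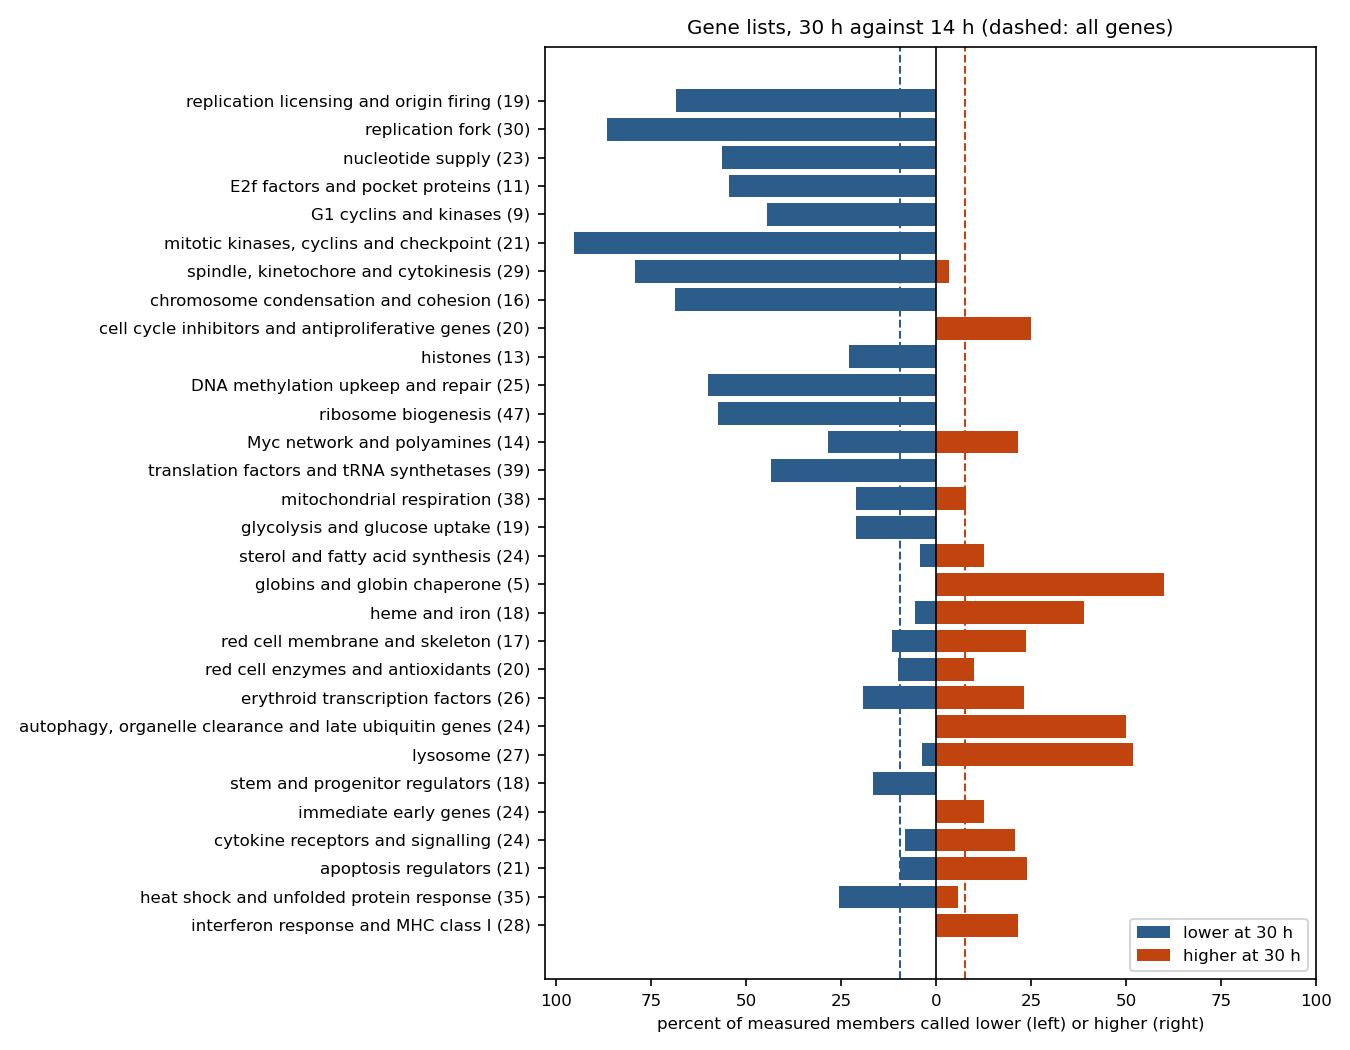
Bars give the percent of measured members of each list called lower (blue, to the left) or higher (orange, to the right) at 30 h against 14 h, with the number of members measured in brackets. Dashed lines mark the shares over all 8251 genes, 9.59% lower and 7.53% higher; the mitotic and replication lists run furthest to the left, the globin, lysosome and autophagy lists furthest to the right.

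Replication licensing loads the Mcm helicase on DNA before S phase. Of 19 measured licensing and origin firing genes 13 fell, with a list median of −1.98. Mcm3, a helicase subunit, read 63.4, 166 and 181 at 30 h and 1399, 1608 and 1734 at 14 h, a change of −3.47 (SE 0.24, adjusted p = 9.79e-09). Mcm4, another subunit, read 44.3, 85.2 and 54.2 at 30 h and 680.2, 822 and 883 at 14 h (−3.42, SE 0.20, adjusted p = 8.85e-10). For both the highest 30 h array stayed far below the lowest 14 h array. Cdt1, which brings the helicase to origins, read 59.6, 60.0 and 100.5 at 30 h and 631, 1020.5 and 1023 at 14 h (−3.31, SE 0.19). Cdc6, its partner in loading, read 160.1, 207 and 188 at 30 h and 1426, 1795 and 1779 at 14 h (−3.02, SE 0.11, adjusted p = 3.99e-12). The Cdc6 arrays lay close together within each time. Mcm7, Mcm5, Mcm2 and Mcm10 changed by −2.53, −2.52, −2.33 and −2.21, and Gmnn, the inhibitor of Cdt1, by −1.59. Mcm6 had a change of −0.01, but its probe set read at most 32.6 at either time, too dim to show a fall of this size.

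At the replication fork 26 of 30 measured genes fell, with a median of −1.49. Pcna, the sliding clamp, read 113, 151 and 142 at 30 h and 715, 1200.1 and 1046 at 14 h (−2.68, SE 0.28, adjusted p = 1.63e-06). Pold1, the catalytic subunit of polymerase delta, read 123, 156 and 120.3 at 30 h and 607, 759.7 and 726 at 14 h (−2.21, SE 0.13). The groups were well apart for both. Pold2, Rfc4 and Rfc2, a polymerase subunit and subunits of the clamp loader, changed by −2.59, −2.26 and −1.47. Pola1 and Prim1, of the primase complex, changed by −2.27 and −2.1. The members that did not pass were Pold4, Dna2, Pole4 and Pole3, at 0.33, −0.34, −0.08 and −0.02.

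Among 23 genes of nucleotide supply 13 fell. Rrm2, the limiting subunit of ribonucleotide reductase, had the largest fall of all named genes. It read 35.3, 89.9 and 109 at 30 h and 999, 1825 and 1652 at 14 h, a fold of 16.5 (−4.05, SE 0.33, adjusted p = 6.95e-08). Both times had their lowest value on array A. Its partner Rrm1 read 145, 299.6 and 337 at 30 h and 1488, 2240.5 and 2184 at 14 h (−2.85, SE 0.28). Tk1, thymidine kinase, changed by −2.52, and Dck, deoxycytidine kinase, by −1.69. The p53-induced reductase subunit Rrm2b had a change of 0.12 and did not pass.

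Replication genes are in general driven by the E2F family, and its part in the falls here was not tested. In a list of E2F factors, pocket proteins and related regulators 6 of 11 measured members fell. E2f8, a late repressor of the family, read 17.7, 14.4 and 29.1 at 30 h and 166, 174 and 189 at 14 h (−2.44, SE 0.24). Tfdp1, the partner that E2F factors bind DNA with, read 129, 117 and 121 at 30 h and 519, 856 and 752 at 14 h (−2.3, SE 0.22). Both were separated at every array. Mybl2, part of the complex that serves mitotic genes, changed by −2.35, the pocket protein Rbl1 by −2.21, E2f1 by −0.90 and Foxm1 by −0.83. The pocket proteins Rb1 and Rbl2 had changes of 0.26 and −0.33 and did not pass. Of 9 G1 cyclins and kinases 4 fell, led by Cks1b, a small kinase subunit, at −1.9. Cdk4 changed by −0.73 and Cdk2 by −0.75 (−0.54, adjusted p = 0.146, averaged over its probe sets), and the cyclins Ccnd2, Ccnd3, Ccne1 and Ccne2 did not pass, at −0.34, −0.03, −0.36 and −0.59. Cdc25a, a phosphatase that frees these kinases, changed by −0.76 and was not called without 14 h B (adjusted p = 0.0928), 30 h A (0.0507) or 30 h C (0.098).

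Of 21 mitotic kinases, cyclins and checkpoint genes 20 fell, with a median of −1.79. Cdk1, the kinase that starts mitosis, read 13.5, 86.5 and 50.9 at 30 h and 572, 829.7 and 899 at 14 h (−3.72, SE 0.30, adjusted p = 7.34e-08). Ccnb2, its B-type cyclin, read 320.1, 651 and 744 at 30 h and 3151, 3558 and 3813 at 14 h (−2.64, SE 0.21, adjusted p = 4.66e-08). As for Rrm2, 30 h A was the lowest 30 h array for both. Cdc20, the activator that ends mitosis, read 253, 302 and 365 at 30 h and 1688, 1803 and 2549 at 14 h (−2.6, SE 0.16). Plk1, Aurka and Aurkb, mitotic kinases, changed by −2.17, −2.75 and −2.12, and the checkpoint genes Mad2l1, Bub1 and Ttk by −2.65, −1.78 and −2.1. The member that did not pass was Melk, whose probe set read at most 13.4.

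Spindle, kinetochore and cytokinesis genes fell in 23 of 29 cases, with a median of −1.61. Kif20a, a kinesin of the dividing midzone, read 36.7, 59.4 and 102 at 30 h and 903, 1226 and 1317 at 14 h (−3.88, SE 0.23, adjusted p = 1.16e-09). Kif2c, a kinesin that shortens microtubules, read 27.1, 44 and 52.7 at 30 h and 283, 337 and 294 at 14 h (−2.53, SE 0.21). Neither gene had overlapping arrays, which for Kif20a, one of the largest falls, was a condition of its being named. Anln, the cytokinesis scaffold anillin, changed by −2.9, Aspm, at spindle poles, by −2.88, and Stmn1, which takes microtubules apart, by −1.88. The chromosome kinesin Kif22 changed by −2.05, Kif11, which pushes spindle poles apart, by −2.31, and Prc1, which bundles the midzone, by −2.24. Ndc80 and Cenpe, at kinetochores, had changes of −0.65 and −0.47 and did not pass. Zwint, a kinetochore gene, rose, at 4186, 4498 and 4284 at 30 h and 2609, 2376 and 2245 at 14 h (0.69, SE 0.13), read by a probe set whose name marks it as open to related transcripts.

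Chromosome condensation and cohesion genes fell in 11 of 16 cases. Top2a, the topoisomerase of mitotic chromosomes, read 39.8, 102 and 64.9 at 30 h and 611, 759 and 735 at 14 h (−3.14, SE 0.23, adjusted p = 1.82e-08). Hmgb3, a chromatin protein of progenitors, read 396, 503 and 490.3 at 30 h and 2434, 2582 and 2834 at 14 h (−2.44, SE 0.12, adjusted p = 1.58e-10). The fall of Hmgb3 was among the tightest between arrays. Mki67, the proliferation marker, changed by −2.74 in its main probe set, at 92.4, 143 and 148 at 30 h and 702, 1209 and 1003 at 14 h. A dimmer second probe set for Mki67, marked as uncertain, went the other way (0.98, adjusted p = 0.0378), at 31.9, 57.9 and 77 at 30 h and 40.9, 15.2 and 10.8 at 14 h. The condensin subunits Smc2, Smc4 and Ncaph changed by −2.56, −1.72 and −2.45, and the cohesin subunits Smc3 and Rad21 by −0.99 and −0.77.

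Upkeep of DNA methylation and repair moved with them, 15 of 25 genes falling. Uhrf1, which guides Dnmt1 to newly copied DNA, read 43.7, 106 and 113 at 30 h and 746, 916 and 932 at 14 h (−3.15, SE 0.27). Dnmt1, the maintenance methylase, read 235, 337 and 308 at 30 h and 1355, 1112 and 1156 at 14 h (−1.94, SE 0.17). Both were lower on every 30 h array. The de novo enzyme Dnmt3a had a change of 0.13 and did not pass, and Asf1b, a histone chaperone of S phase, fell by 3.13. Of 13 measured histone genes and histone processing factors 3 fell, against 9.59% over all genes. H2ax, the variant marked at DNA breaks, fell by 1.59, and Slbp, which binds the stem loop of histone messages, by 1.30. H2az2, a variant of H2A.Z, fell by 0.48. The call of H2az2 was lost without 14 h B (−0.44, adjusted p = 0.0509) and 14 h C (−0.40, adjusted p = 0.071).

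Of the 6 members of these lists that rose 5 were among the 20 cell cycle inhibitors, and the other was Zwint. Over all genes 7.53% rose. Gadd45a, a stress and growth arrest gene, read 1145, 1214 and 1064 at 30 h and 488, 442 and 460.0 at 14 h (1.19, SE 0.17, adjusted p = 6.65e-05). Cdkn1a, the inhibitor p21, read 3801, 2997 and 2145 at 30 h and 1428, 1255 and 985 at 14 h (1.12, SE 0.27, adjusted p = 0.00786). Its 30 h arrays were spread widely, and without 14 h C it was not called (0.95, adjusted p = 0.0515), while its second probe set gave 1.21 (adjusted p = 0.000232). Cdkn2c, the inhibitor p18, read 888, 1071 and 987 at 30 h and 555, 677 and 521 at 14 h (0.69, SE 0.14). Mxd4, a partner of Max that opposes Myc, changed by 1.0, and Gadd45g by 0.90. Cdkn1b, the inhibitor p27, had a change of 0.63 with an SE of 0.38 and did not pass.

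Promoter letters were compared between the replication and the mitotic genes. RefSeq promoters on GRCm38.p6, which run from 250 bases before to 50 after each gene's start, were searched on both strands for 3 short motifs. These were the CHR element (TTTGAA or TTCGAA), the CCAAT box (CCAAT) and an E2F site (TTTCCCGC, TTTGGCGC or TTTCGCGC), and a match to one can share at most 1 letter with a match to another. The CHR element was in 72.5% of 40 promoters of mitotic and spindle genes that fell and in 20.5% of 39 promoters of replication and licensing genes that fell, against 14.6% of 8412 promoters of all tested genes. The CCAAT box was in 80.0% of the mitotic and 51.3% of the replication promoters, against 37.0% of all. E2F sites were in 2.5% of the mitotic and 30.8% of the replication promoters, against 3.11% of all. A promoter was found for 35 of 43 mitotic and 33 of 39 replication genes. A match is a description of letters, not of binding, and these genes were picked by their fall. Shown for 3 genes with large falls and 1 promoter each, Mcm3 lies at chr1:20820263-20820562 on the minus strand, with its 2 E2F sites in capitals, Cdk1 at chr10:69352863-69353162 on the minus strand and Anln at chr9:22389157-22389456 on the minus strand, with CHR elements and, in Cdk1, CCAAT boxes in capitals.
Mcm3: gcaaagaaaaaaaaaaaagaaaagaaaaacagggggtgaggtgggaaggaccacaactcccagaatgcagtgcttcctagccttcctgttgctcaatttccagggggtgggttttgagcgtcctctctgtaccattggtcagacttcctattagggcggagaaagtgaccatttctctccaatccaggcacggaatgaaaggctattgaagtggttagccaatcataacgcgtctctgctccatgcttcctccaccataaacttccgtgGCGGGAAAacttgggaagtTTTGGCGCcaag
Cdk1: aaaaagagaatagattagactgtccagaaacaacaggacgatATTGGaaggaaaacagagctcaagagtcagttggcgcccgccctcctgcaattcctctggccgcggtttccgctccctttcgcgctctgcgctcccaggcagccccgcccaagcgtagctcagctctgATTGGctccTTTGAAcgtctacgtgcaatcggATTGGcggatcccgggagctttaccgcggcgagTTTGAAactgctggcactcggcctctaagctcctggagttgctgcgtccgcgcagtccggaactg
Anln: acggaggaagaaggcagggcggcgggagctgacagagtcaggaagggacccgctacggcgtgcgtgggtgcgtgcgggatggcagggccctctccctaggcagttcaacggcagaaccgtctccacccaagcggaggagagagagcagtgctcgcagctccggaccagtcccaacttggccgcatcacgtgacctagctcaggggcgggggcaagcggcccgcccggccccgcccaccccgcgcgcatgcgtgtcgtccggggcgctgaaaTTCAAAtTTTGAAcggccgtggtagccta
In the Mcm3 sequence both E2F sites lie within the 50 bases after the start, while Cdk1 holds 2 CHR elements and 3 CCAAT boxes, and Anln 2 CHR elements and no CCAAT box in this window. Left in lower case are 3 CCAAT boxes of Mcm3 and 1 E2F site of Cdk1.

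The 21 h arrays place these falls in time. For each called gene with at least a 2-fold fall, the part of its 14 h to 30 h log2 change already present at 21 h was taken. The median was 17.9% for 21 spindle genes, 20.1% for 18 mitotic kinases and cyclins and 24.4% for 9 condensation genes. It was 40.3% for 13 licensing genes, 44.3% for 20 fork genes and 65.8% for 17 ribosome biogenesis genes, and 40.7% over all 387 such falls. Leaving out 14 h A, which enters both the numerator and the denominator, gave 19.8%, 23.2%, 28.4%, 44.5%, 47.8% and 67.3% in the same order of lists. Array 21 h A stood apart on the first principal component, at 36.42 against 27.58 and 28.38 for 21 h B and C. No 21 h array was left out, so the weight of single 21 h arrays in these shares was not tested. Differences between lists were not tested.

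**Figure D3:**
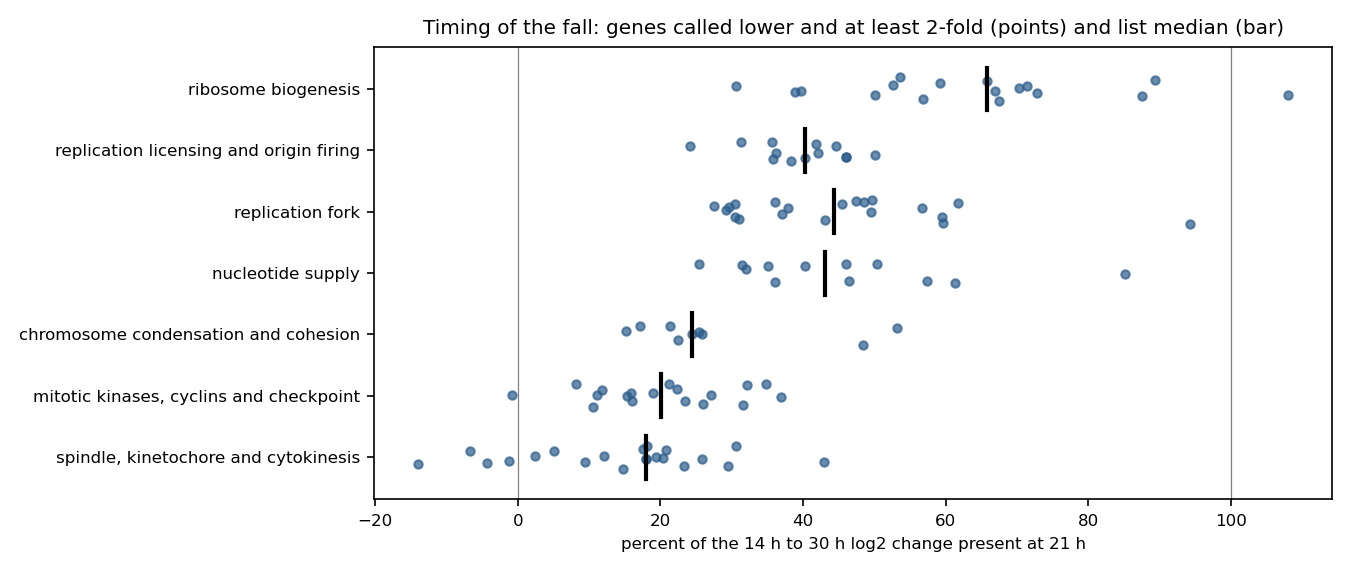
Each point is a gene called lower and at least 2-fold at 30 h against 14 h; the x axis gives the percent of its 14 h to 30 h log2 change present at 21 h, and the black bar is the list median. The bars of the spindle and mitotic lists stand at 17.9% and 20.1%, to the left of those of the replication lists, and that of ribosome biogenesis stands at 65.8%.

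Single genes differed in what had changed by 21 h. Ccnb2, whose 30 h and 14 h signals are given above, read 2858, 3523 and 3642 on the 21 h arrays, with a change of −0.22 at 21 h against 14 h (adjusted p = 0.749) and of −2.43 at 30 h against 21 h (adjusted p = 7.43e-07). Mcm4 read 222, 271 and 357 at 21 h, where its change against 14 h was −1.43 (adjusted p = 0.000454), and its change at 30 h against 21 h was −1.99 (adjusted p = 3.69e-06). Gar1, which helps convert uridines of ribosomal RNA to pseudouridine, read 292, 245 and 348 at 21 h (−1.57 against 14 h, adjusted p = 0.000207), and its change at 30 h against 21 h was −0.76 (adjusted p = 0.0305). At 21 h Mcm4 and Gar1 were called lower than at 14 h and Ccnb2 was not, and the difference between the genes was not tested.

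**Figure D4:**
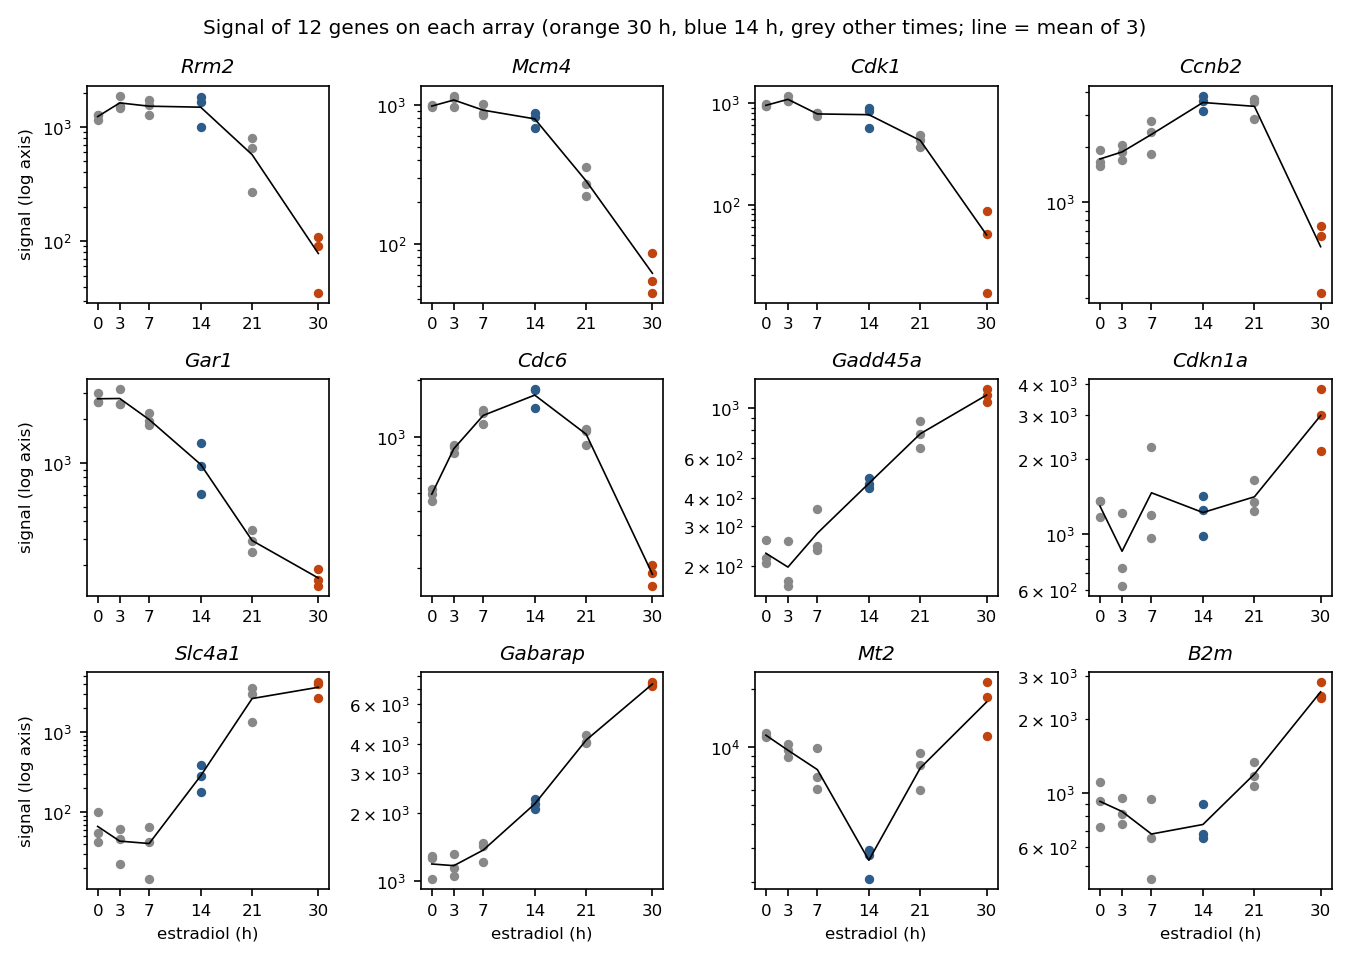
Signals of 12 genes (y axis, log scale) on every array against hours of estradiol (x axis); points are arrays, orange at 30 h, blue at 14 h and grey at other times, and lines join the means of 3. Ccnb2 drops after 21 h, Mcm4 and Gar1 drop both before and after 21 h, Cdc6 peaks at 14 h, and Mt2 is lowest at 14 h.

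Of 181 measured genes in 6 lists of growth and metabolism 61 fell (33.7%) and 9 rose (4.97%), with a median of −0.36. Over all genes 9.59% fell and 7.53% rose. Ribosome biogenesis contributed 27 of its 47 members, with a median of −0.77, and in the comparison of 14 h with 0 h, which shares the 14 h arrays, 32 of the 47 were already lower. Gar1 read 158, 144 and 188 at 30 h and 611, 950.2 and 1365 at 14 h (−2.33, SE 0.20, adjusted p = 1.18e-07). Fbl, the methylase fibrillarin, read 631, 558 and 471 at 30 h and 1397, 1388 and 1720.2 at 14 h (−1.42, SE 0.14). The spread of Gar1 at 14 h was wide, with 14 h A lowest, yet no 14 h array came near the 30 h arrays. A second, dim probe set of Gar1 gave 0.21 (adjusted p = 0.706). Nop56 and Nop58, core proteins of box C/D particles, changed by −1.73 and −1.71, and the nucleolar proteins Npm1 and Ncl by −1.02 and −0.83.

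Myc itself read 11.9, 12.9 and 4.3 at 30 h and 39.8, 30.9 and 78.4 at 14 h (−1.28, SE 0.27, adjusted p = 0.00234), dim at both times. Cdca7, a gene driven by Myc and E2F, read 43, 39.8 and 47.2 at 30 h and 325, 500.4 and 561 at 14 h (−2.99, SE 0.21, adjusted p = 1.08e-08). Cdca7 was far lower on every 30 h array. In polyamine metabolism the synthetic enzymes Odc1 and Srm changed by −1.12 and −2.47, while Oaz2, an antizyme that destroys Odc1 protein, changed by 0.96 and Sat1, which degrades polyamines, by 1.24. These 4 members were called, the synthetic ones lower and the other 2 higher. The 30 h values of Sat1 were 798, 222 and 238, of which A was far above the others. Without 14 h B, 1 of the 3 rising members of this list was called.

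Translation factors and tRNA synthetases fell in 17 of 39 cases, with Eif2b1, of the exchange factor for eIF2, at −1.3 and the glycine, isoleucine and leucine tRNA synthetases Gars, Iars and Lars at −1.23, −1.16 and −0.99. In mitochondrial respiration 8 of 38 members fell and 3 rose, against 9.59% and 7.53% over all genes. Without 14 h A 13 fell, and with arrays scaled to a common median 4 fell, near the share over all genes. Without 14 h C 1 rose. Cyc1, cytochrome c1, read 1429.5, 1431 and 1329 at 30 h and 2176, 3120.0 and 3058 at 14 h (−1.08, SE 0.15). Ndufa6, a complex I subunit, read 1918, 1967 and 1874 at 30 h and 577, 560.4 and 807 at 14 h (1.43, SE 0.13). In their main probe sets these members of the respiratory chain moved in opposite directions with no overlap. A second bright probe set of Cyc1, marked as uncertain, had overlapping arrays and was not called (0.23, adjusted p = 0.439).

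In glycolysis 4 of 19 members fell, against 9.59% over all genes. Ldha, lactate dehydrogenase, read 769, 906 and 2532 at 30 h and 7715, 6088 and 5861 at 14 h (−2.52, SE 0.46, adjusted p = 0.000618), with 30 h C well above the other 30 h arrays. Pgk1 changed by −1.47. The other members called were Pfkm and Pdk1. Pfkm gave −0.52 (adjusted p = 0.0952) without 14 h A and −0.43 (adjusted p = 0.146) without 30 h B. Pdk1 missed the threshold whenever any one of the 6 arrays was left out (adjusted p 0.0674 to 0.126). Of 24 sterol and fatty acid genes 3 rose and 1 fell, against 7.53% and 9.59% over all genes, with a list median of 0.20. Fdft1, squalene synthase, read 1705, 1902 and 1374 at 30 h and 666, 470.2 and 644 at 14 h (1.31, SE 0.19), and Hmgcs1, an early step, changed by 1.1. Mvd changed by 0.87 and was not called without 30 h A (0.69, adjusted p = 0.0553). Elovl6, which lengthens fatty acids, changed by −0.94 at signals of at most 53, and lost its call without 14 h A, 14 h C or any 30 h array (adjusted p 0.0582 to 0.145).

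Of 137 measured members in 7 lists of red cell maturation 48 rose (35%) and 11 fell (8.03%), with a median of 0.32. Over all genes 7.53% rose and 9.59% fell, so the share of falls was near that of all genes. Without 14 h A 50 members rose. Slc4a1, the anion exchanger band 3, had the largest rise of all named genes. It read 2705, 4037 and 4213 at 30 h and 287, 393 and 177 at 14 h, a fold of 11.4 (3.51, SE 0.37, adjusted p = 1.63e-06). The lowest 30 h array was several times the highest 14 h array. Rhag, the Rh-associated ammonia channel of the same membrane, fell, at 1258, 1116 and 975 at 30 h and 2483, 2839 and 2066 at 14 h (−1.22, SE 0.15, adjusted p = 1.05e-05). Mpp1, a membrane scaffold, changed by 0.93 and Add1, adducin, by 0.77, though without 14 h B Add1 was not called (0.58, adjusted p = 0.0616). Of 17 membrane and skeleton genes 4 rose and 2 fell, against 7.53% and 9.59% over all genes, and 2 rose without 14 h B. The count of falls was 1 without 14 h A, B or C, or without 30 h A or B.

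Of 5 measured globin genes 3 rose, of which 2 are embryonic globins, against 7.53% rising over all genes. Hbb-y, the embryonic beta-like globin, read 301, 427 and 323 at 30 h and 49, 75 and 28.2 at 14 h (2.61, SE 0.41, adjusted p = 0.000156). Hba-x, the embryonic zeta globin, read 208, 221 and 269.6 at 30 h and 68.5, 97.4 and 44.1 at 14 h (1.68, SE 0.32). Hbb-b2, an adult beta globin, read 11958, 9989.7 and 10763 at 30 h and 5785, 5952 and 4965 at 14 h (0.90, SE 0.18). All 3 rose with no overlap, while Hba-a1 had a change of 0.46 (adjusted p = 0.0658) and Hbb-bh1, another embryonic beta-like globin, one of 0.68, and neither passed. Globin genes are near copies of each other, so reads of one by the probes of another, and saturation of the brightest, were not tested.

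Heme and iron genes rose in 7 of 18 cases and fell in 1, against 7.53% and 9.59% over all genes, with a list median of 0.05. Alas2, the rate-setting synthase of erythroid heme, read 11810.3, 12316 and 13301 at 30 h and 2869.5, 2370.3 and 1855 at 14 h (2.38, SE 0.22, adjusted p = 3.78e-07). Uros, which closes the porphyrin ring, read 428, 538 and 435 at 30 h and 830.4, 988 and 733 at 14 h (−0.80, SE 0.14, adjusted p = 0.000602). So enzymes of one pathway moved in opposite directions, Alas2 rising and Uros falling. Urod, the next enzyme, changed by 0.58, Hmox1, which breaks heme down, by 1.17, and Fth1, the ferritin heavy chain, by 0.55. A second bright probe set of Fth1, marked as uncertain, gave −0.15 (adjusted p = 0.774), and the average of both was not called (0.20, adjusted p = 0.394). Fech, which inserts the iron, changed by 1.09, was dim, and was not called without 14 h B (0.92, adjusted p = 0.0621) or 30 h B (0.99, adjusted p = 0.051). The count of rising members was 3 without 14 h C and 4 without 14 h B or 30 h C. Hbb-y and Alas2 had the largest rises of red cell list genes with a promoter in the same RefSeq table, and only Alas2 is shown. The Alas2 promoter at chrX:150547167-150547466 on the plus strand has its GATA motif (AGATAA or TGATAA, on either strand) and its CACCC repeats in capitals.
Alas2: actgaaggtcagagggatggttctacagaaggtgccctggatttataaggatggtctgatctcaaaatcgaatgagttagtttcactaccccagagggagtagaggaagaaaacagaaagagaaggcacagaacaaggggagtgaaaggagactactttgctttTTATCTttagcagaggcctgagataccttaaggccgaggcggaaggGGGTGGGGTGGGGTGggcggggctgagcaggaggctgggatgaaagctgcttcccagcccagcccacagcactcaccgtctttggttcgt
GATA motifs of this kind were in 11.2% of 677 promoters of rising genes and 10% of 808 promoters of falling genes, against 11.8% of all. CACCC was in 65.4% of the rising and 59.4% of the falling promoters, against 63.8% of all.

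Among red cell enzymes Car1, carbonic anhydrase 1, fell most, at 85.6, 46.2 and 60.8 at 30 h and 830.0, 937 and 1202 at 14 h (−3.63, SE 0.18, adjusted p = 1.58e-10). Gpx4, a glutathione peroxidase for lipids, read 819.5, 619 and 669 at 30 h and 331, 463 and 295 at 14 h (0.93, SE 0.16). Prdx2, a peroxiredoxin abundant in red cells, changed by 0.84, and Txn1, thioredoxin, by −0.97. Averaged with its other, much dimmer probe sets, Prdx2 was not called (0.35, adjusted p = 0.0627). Of 20 members 2 rose and 2 fell, near the 7.53% and 9.59% over all genes.

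Transcription factors of the lineage split, 6 of 26 rising and 5 falling, against 7.53% and 9.59% over all genes. Myb, which keeps progenitors dividing, read 17.4, 3 and 2 at 30 h and 139, 103 and 149.8 at 14 h (−2.71, SE 0.29, adjusted p = 2.01e-06). Lyl1, a relative of Tal1, read 65.4, 59.3 and 52.6 at 30 h and 174, 204 and 248 at 14 h (−1.54, SE 0.18). Myb was near the bottom of the scale at 30 h. Klf3, a repressor that competes with Klf1, rose, at 595, 713 and 581 at 30 h and 267, 318 and 219 at 14 h (1.19, SE 0.19). Bach1, a repressor that heme releases from DNA, changed by 1.66, Nfe2 by 0.67 and Mafk, its small partner, by 0.59. The count of falling factors was 3 without 14 h B, 14 h C, 30 h B or 30 h C.

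Autophagy, organelle clearance and late ubiquitin genes rose in 12 of 24 cases, with a median of 0.62, against 7.53% rising over all genes. Gabarap, which coats autophagosomes, read 7362, 7484 and 7208 at 30 h and 2295, 2076 and 2178 at 14 h (1.71, SE 0.13, adjusted p = 4.25e-08). Ube2o, a ubiquitin enzyme that clears ribosomal proteins from reticulocytes, read 501, 555 and 637 at 30 h and 231, 188 and 192 at 14 h (1.42, SE 0.18). The Gabarap arrays agreed closely within each time. Map1lc3b, a relative of Gabarap, changed by 1.09, and Atg12, Sqstm1 and Ulk1, which conjugate, load and start autophagosomes, by 1.15, 0.70 and 0.63. Rnf11, a ubiquitin ligase adaptor, changed by 1.35, and Gabarapl1 and Gabarapl2, close relatives of Gabarap, by 0.66 and 0.56. Bnip3 and Becn1 had changes of −0.57 and 0.27 and did not pass.

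Lysosome genes rose in 14 of 27 cases, with a median of 0.65, against 7.53% rising over all genes. Ctsa, a carboxypeptidase that protects other lysosomal enzymes, read 749.7, 852 and 702 at 30 h and 159.9, 131 and 184 at 14 h (2.18, SE 0.18, adjusted p = 7.71e-08). Atp6v0d1, a subunit of the proton pump, read 2621, 2880.0 and 2292 at 30 h and 832, 947 and 824 at 14 h (1.44, SE 0.12). Both were separated on every array. Lamp1, Lamp2 and Npc2, of the membrane and of cholesterol export, changed by 0.90, 1.08 and 1.25, and Ctsd, a protease, by 1.06. Ctsb, another protease, read 4550.1, 5061 and 4589 at 30 h and 1648, 1826 and 1566 at 14 h (1.38) in its bright probe set, and averaged with its 3 dim ones it was not called (0.61, adjusted p = 0.0884). The protease Ctse was the member that fell, by 1.14.

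Other large rises lay outside these lists. Ddt, a tautomerase related to the cytokine Mif, read 3327, 3099 and 2970.2 at 30 h and 363, 316 and 352 at 14 h (3.03, SE 0.15, adjusted p = 1.58e-10). Mt2, a metallothionein that binds zinc and copper, read 11482, 18216 and 21705 at 30 h and 2061, 2761 and 2936 at 14 h (2.59, SE 0.22, adjusted p = 1.35e-07). Mt1, its neighbour in function, read 11379.6, 14844 and 20119.9 at 30 h and 2016, 3144 and 3357 at 14 h (2.33, SE 0.20). Against 0 h, the 14 h arrays of Mt2 and Mt1 had been lower by −2.33 and −1.6 on the log2 scale, a comparison that shares the 14 h arrays. Tmem150a, Washc2 (of the WASH complex that sorts endosomes), P2rx4 (an ATP-gated channel) and Ninj1 (a protein of membrane rupture) changed by 2.59, 2.34, 2.33 and 2.35, and Zfand5, a zinc finger protein of the proteasome, by 2.32. Among falls, Mtm1, a phosphoinositide phosphatase, changed by −3.04 in an uncertain main probe set, while its second probe set gave 0.61 (adjusted p = 0.0559), so its direction is not settled.

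Reversals of earlier changes were sought with 7 h against 0 h, a comparison that shares no array with 30 h against 14 h. At 7 h 518 of 12422 passed (4.17%), 308 as rises and 210 as falls. Of the 308, 39 fell later (12.7% of them and 3.86% of all later falls), and 85 rose further (27.6%). Of the 210, 26 rose later (12.4% of them and 3.26% of all later rises), and 72 fell further (34.3%). Over all probe sets, later falls made up 8.13% and later rises 6.42%, and the difference of the reversed shares from these was not tested. The reversed probe sets stood for 34 genes up then down and 22 down then up, of which 5 and 4 probe sets were at least 2-fold both times. The counts rest on few arrays: up then down was 24 without 14 h C and 25 without 30 h C, and down then up was 15 without 0 h C; without 14 h A they were 33 and 23.

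**Figure D5:**
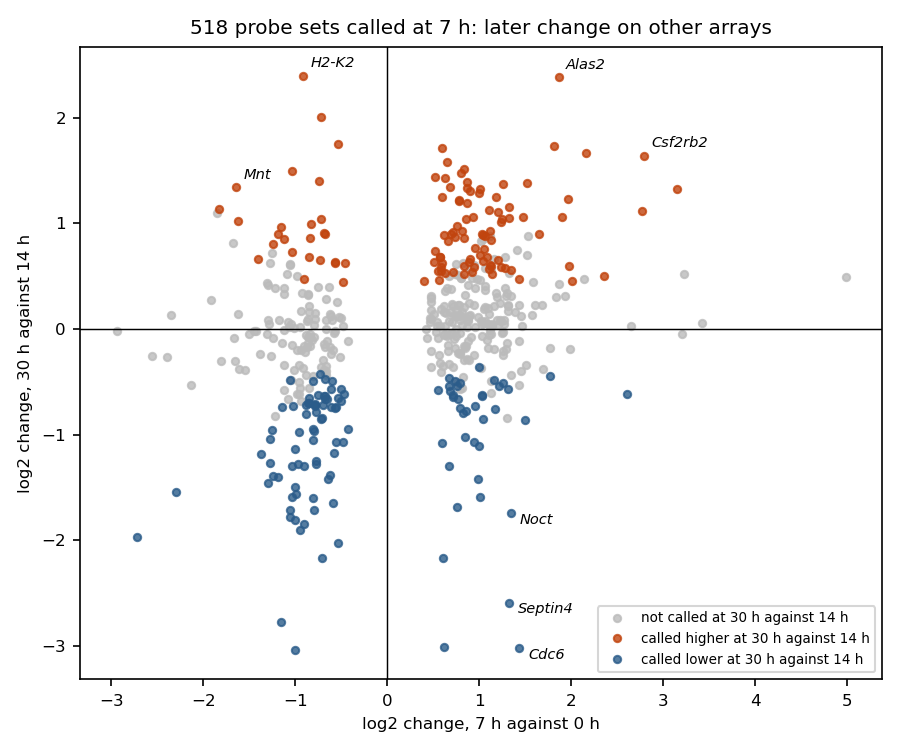
Each point is 1 of the 518 probe sets called at 7 h against 0 h; the x axis is that log2 change and the y axis the log2 change at 30 h against 14 h, measured on other arrays. Orange points were called higher and blue points lower later: the lower right quadrant holds the 39 that rose and then fell, the upper left the 26 that fell and then rose.

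Cdc6 led the genes that rose early and fell late under the rule for naming them. It read 1175, 1385 and 1339.7 at 7 h and 457, 529.8 and 497 at 0 h (1.44, SE 0.11, adjusted p = 1.54e-07), before the late fall given above. Septin4, a filament-forming GTPase linked to cell death, read 94.4, 102 and 81.6 at 7 h and 18.9, 21.4 and 44.1 at 0 h (1.32), then 3.4, 10.1 and 9.7 at 30 h and 103, 116 and 172 at 14 h (−2.6, SE 0.28). The late fall took Septin4 below its 0 h signals on all 3 arrays. Its early call was lost without 0 h A (1.14, adjusted p = 0.056) and with its probe sets averaged (0.55, adjusted p = 0.271).

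Noct, a phosphatase of NADP(H) with a daily rhythm in other tissues, read 762, 784 and 1170.1 at 7 h and 270.0, 395 and 401 at 0 h (1.34), then 338, 364 and 313 at 30 h and 1298, 1262 and 1104 at 14 h (−1.74, SE 0.16). Its other bright probe set, marked as uncertain, had a late change of 0.37 (adjusted p = 0.568). Cenpa, the histone of centromeres, read 462, 531 and 511 at 7 h and 266, 243 and 236 at 0 h (1.01), then 126, 203 and 271 at 30 h and 668, 628 and 588 at 14 h (−1.6). Cenpa was below every 0 h array on 2 of 3 arrays of 30 h.

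Lmo2, the bridging protein of the Tal1 and Gata-1 complex, read 2520.1, 2223 and 1850.4 at 7 h and 1114, 1156 and 1128 at 0 h (0.94), then 1158, 909 and 828 at 30 h and 2016, 1674 and 2087 at 14 h (−1.07, SE 0.16). Cul4a, a scaffold of ubiquitin ligases, changed by 1.5 at 7 h and −0.86 later, and Srrt, of RNA cap binding, by 1.0 and −1.11. Ubac1, a ubiquitin ligase subunit, changed by 0.99 and −1.42. Its early call was lost without 0 h A, 0 h B, 7 h B or 7 h C (adjusted p 0.0893 to 0.192). Further genes of the lists that rose and then fell were Plk1, Ccna2, Cks2, Dck, Uros, Pfkm, H2az2, Gfi1b and Klf1. At 30 h against 0 h, Pfkm, Uros, H2az2 and Klf1 were still called higher (1.745, 0.94, 0.96 and 0.90). Against the same 0 h arrays Plk1, Ccna2, Cks2 and Dck were called lower (−1.4, −0.77, −0.43 and −0.46), and Gfi1b was not called (0.19). Klf1, the red cell activator, changed by 1.0 early and −0.36 late, and Gfi1b, a repressor of the lineage, by 1.32 and −0.57. Their 30 h and 14 h arrays overlapped: Klf1 read 2995 on 30 h A and 2935 on 14 h A, and Gfi1b 887 and 864.

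In the opposite pattern, Mnt, which opposes Myc at the same DNA sites, read 35.8, 31.8 and 11.2 at 7 h and 113, 116 and 111 at 0 h (−1.64), then 69.7, 109.9 and 85.7 at 30 h and 62.3, 20.8 and 11.3 at 14 h (1.34, SE 0.36). The late call was lost without 14 h B, 14 h C or 30 h B (adjusted p 0.0523 to 0.096), and the early one without 7 h C (adjusted p = 0.0684). Cbfa2t3, the corepressor Eto2 of Tal1 complexes, changed by −1.25 early and 0.81 late. Vamp8, a fusion protein of lysosomes and endosomes, changed by −0.84 and 0.86.

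H2-K2, a class I histocompatibility gene, changed by −0.92 early, a call lost without 0 h B, 0 h C or 7 h A (adjusted p 0.0745 to 0.139), and read 1179, 968 and 578 at 30 h and 163, 132 and 151 at 14 h (2.4, adjusted p = 3.47e-07). Its probe set may read related class I genes. Cited2, a coactivator partner of p300, changed by −1.62 and 1.03, and its late call was lost without 14 h C (adjusted p = 0.104) or 30 h B (0.106). Lasp1, an actin-binding protein, changed by −1.83 and 1.14, the late call lost without any one of 5 of the 6 arrays (adjusted p 0.0533 to 0.085). Git1 changed by −1.16 and 0.97 and Flot1, flotillin, by −1.12 and 0.85. Git1 was not called late without 14 h C (adjusted p = 0.0774) or 30 h C (0.0576), nor early without 0 h C (0.0568), and Flot1 was not called late without 14 h B (0.0743).

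Class I and interferon genes rose in 6 of 28 cases, against 7.53% over all genes. B2m, the light chain of class I molecules, read 2833, 2450.1 and 2479 at 30 h and 650.4, 899 and 675 at 14 h (1.65, SE 0.22, adjusted p = 2.07e-05). H2-D1 and H2-K1, heavy chains, changed by 1.2 and 1.1, and Tapbp, which loads their peptides, by 0.74. The main probe sets of H2-D1 and H2-K1 are marked as uncertain and may read related class I genes. Other probe sets of H2-K1 were not called (1.25, adjusted p = 0.0785, and 0.73, adjusted p = 0.122). Those of H2-D1 gave 1.47 (adjusted p = 2.3e-06) and 0.34 (adjusted p = 0.588). The classical interferon-induced genes Isg15, Mx1 and Ifit1 had changes of −0.08, −0.09 and −0.00 and did not pass.

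In 6 lists of survival, signalling, progenitor, stress and interferon genes 21 of 147 measured members rose (14.3%) and 15 fell (10.2%), against 7.53% and 9.59% over all genes, with a median of 0.07. Bcl2l1, the survival protein Bcl-xL, read 1129.9, 1515 and 1469 at 30 h and 619.6, 356 and 338 at 14 h (1.53, SE 0.19, adjusted p = 9.28e-06). Its lowest 30 h array was well above the highest at 14 h. Mcl1, another survival protein, changed by 0.76, Mdm2, which destroys p53, by 0.79 and the death protein Bcl2l11 by 0.74. In all 5 of 21 apoptosis regulators rose, 3 without 14 h C, and 2 fell, a count that was 0 without 14 h A and 1 without 14 h B, 14 h C, 30 h A or 30 h C. Csf2rb2, an interleukin 3 receptor chain, read 9162, 6913 and 7497 at 30 h and 3722, 1944 and 2063 at 14 h (1.64), having changed by 2.79 at 7 h. Cish, a feedback inhibitor of cytokine signals, changed by 1.03. With them 5 of 24 cytokine signalling genes rose, 3 without 30 h B, and 2 fell, 1 without 14 h C or 30 h C. Kit, the receptor for stem cell factor, read 47.6, 25.2 and 6.3 at 30 h and 65.1, 81.4 and 87 at 14 h (−1.24), and was not called without 14 h B, 14 h C or 30 h C (adjusted p 0.0738 to 0.154). Among 18 stem and progenitor regulators 3 fell, Kit, Myb and Lmo2. Gata2, the Gata factor of progenitors, had a change of −0.25, after one of −2.56 at 7 h.

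Of 24 immediate early genes 3 rose, 5 without 14 h A, with 7.53% rising over all genes. Jund, a member of AP-1, read 3715, 3293 and 3783 at 30 h and 1473, 505 and 1019.6 at 14 h (1.85, SE 0.33), with the 14 h arrays spread widely. Klf6, a stress-induced Kruppel-like factor, changed by 1.15 and Egr2 by 1.5, while Fos, Junb and Atf3 had changes of −0.47, 0.09 and 0.07 and did not pass. Heat shock and unfolded protein genes fell in 9 of 35 cases and rose in 2, against 9.59% and 7.53% over all genes. Hspa9, the mitochondrial chaperone, read 399.9, 452 and 362 at 30 h and 898, 1348 and 1214 at 14 h (−1.42, SE 0.18), and Hspa5 and Hsp90b1, chaperones of the endoplasmic reticulum, changed by −1.11 and −0.98. All 3 were lower on every 30 h array than on any 14 h array.

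Of 71 measured markers of other cell types 1 rose (1.41%) and 3 fell (4.23%), against 7.53% and 9.59% over all genes. Where a marker was dim, the added constant made its change too small. Gp9, a platelet glycoprotein, read 21, 30.0 and 24.2 at 30 h and 131, 147 and 74.7 at 14 h (−1.66), and the summed signal of 9 megakaryocyte markers was 143 to 193 at 30 h and 279 to 308 at 14 h. Vwf, a defining marker of that lineage, stayed below 10 on all 6 arrays. Of 12 mast cell markers Cma1 rose (at 47.6, 76.4 and 68.7 at 30 h and 6.5, 21.2 and 13.4 at 14 h) and Ms4a2 fell, with sums of 230.4 to 261 at 30 h and 151 to 347 at 14 h. The other probe sets of Cma1 were dimmer and not called (0.097, adjusted p = 0.875, and 0.099, adjusted p = 0.715). In limma 0 of 20 neutrophil and macrophage markers were called, with 3 higher at an unadjusted p below 0.05, and their sum was 1174 to 1410.0 at 30 h and 802 to 1190 at 14 h. In the same fit 0 of 17 lymphocyte markers were called, also 0 at an unadjusted p below 0.05, with sums of 445 to 692 at 30 h and 475 to 575 at 14 h. Of 14 stromal markers Postn fell, was below 20 on all 6 arrays and lost its call without 14 h A, 14 h B, 30 h A or 30 h B. The part of such cells in the results above was not tested.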

How the data were processed

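The authors deposited 1 table with an unlogged signal intensity per probe set on each array, as its values show. Not given in the sources used here are how probes were summarised, the scaling target and detection calls. The 2% trimmed means of 148.015 to 148.766 on all 18 arrays show values scaled to a common mean, and 0 pairs of arrays were identical. The number of arrays, 3 at each time, limits the precision. The labels call them biological replicates; an exact permutation of 3 against 3 arrays cannot go below p = 0.1, so single-gene tests borrow their variance from all probe sets.

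A constant of 16 was added, the log2 taken and the arrays quantile normalized. The linear model of limma 3.58.1 in R 4.3.3 took all 18 arrays, 1 mean per time (12 residual degrees of freedom), with eBayes and an intensity trend, two-sided, and Benjamini-Hochberg adjustment over 12422 probe sets. The fit was tested on simulated data. The platform table gave 1 symbol to 10833 probe sets, several to 396 and none to 1193; 191 of the 1808 called probe sets had no single symbol and are not named. A gene was read by its probe set with 1 symbol and the highest mean log2 signal. Among 46 named called genes with 56 further probe sets, 43 of these went the same way, 18 of them called, and 1 was called the opposite way. Probe set names ending in _f_at, _s_at, _r_at, _i_at or _g_at were marked as uncertain.

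Named genes were the 12 largest rises and 12 largest falls whose arrays did not overlap, the 8 largest reversals each way by the smaller of their 2 changes, and the 4 members of each of 35 gene lists with the smallest p; others are named as members of a list. Not all genes under this rule are named in the text. The members and lists were chosen with earlier results of these data known. Same-letter 30 h and 14 h arrays had correlations of −0.024 to 0.056 in their deviations from the group means, so the letters were not taken as pairs. Alternatives covered normalization, constant, filter, trend, array weights, replicate block, the times fitted and the probe set of a gene. Each array was also left out in turn, except the 21 h arrays.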

Additional observations from a re-analysis of the deposited data

How the results depend on the processing

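At 30 h against 14 h, 1374 to 1961 probe sets were called over all alternatives (1808 as reported), and 1374 to 1809 when 1 array was left out. Without quantile normalization 750 rose and 1072 fell, and with median scaling 749 rose and 879 fell. The cell cycle lists had 123 to 136 falling genes, the growth lists 53 to 68, and the maturation lists 38 to 53 rising genes. Of 163 named genes, called or not, recomputed in 2601 ways, 2513 values stayed on the same side of the threshold. Another 73 (from 23 genes) lost the call and 15 (from 5 genes) gained it. A change of sign was counted only where the reported or the alternative setting gave a call, and 0 were found. For the 16 reversal genes at 7 h against 0 h, 236 of 256 kept the call, 20 (from 7 genes) lost it and 0 changed sign. Of 1120 list counts, 89 moved by more than 1.5 times. The replicate block, by letter, gave 1906 called probe sets at 30 h against 14 h; the letters share only a name.

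The early comparisons were less steady. At 7 h against 0 h, a fit of those times alone called 341, and leaving out 1 array 352 to 441 (518 as reported). At 3 h against 0 h, array weights called 202, those times alone 84, and leaving out 1 array 78 (without 3 h A; 87 without 0 h B) to 105 (132 as reported). Reversals up then down numbered 18 with median scaling, 12 with early changes taken at 3 h, 5 when both changes had to be 2-fold, and 24 to 33 with 1 array left out (39 as reported). Down then up numbered 16, 11 and 4 in the same order and 15 to 24 with 1 array left out (26 as reported). The causes were not tested. Signals near 0 have no detection calls here, so changes of dim genes are limited by signal over background.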
